A study of Mus musculus with 6 samples.

Results

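Skeletal muscle contractile and metabolic genes were followed in RNA from the tibial plateau of Frzb-/- and wild-type mice. Their members were 47 listed genes of the sarcomere, of calcium handling and of muscle energy supply, and 46 of them had a probe set, out of 13817 genes that the arrays measured. Myh7, the slow myosin heavy chain, was the gene with no probe set assigned to it alone. A gene was read at its brightest probe set, which is the one with the highest mean over all 6 arrays, and values are RMA expression values on the log2 scale. The list was written by gene function, though with earlier results of these data known.

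RNA came from male C57Bl/6J mice aged 6 weeks, and each of the 6 arrays held the articular cartilage and subchondral bone of 1 knee joint, taken out in a single piece at the growth plate. The 3 wild-type mice were animals 6-1, 8-1 and 9-1, and the Frzb-/- mice of the comparison were animals 14 and 17, which lack the WNT antagonist Frzb in all tissues. Animal 6 was also labelled Frzb-/- and is given apart throughout, because the study set 1 mouse with that label aside. In the study that mouse clustered with the wild-type mice and was found to be heterozygous when genotyped again. The sources used here do not give the number of that mouse. Frzb itself read 10.02 to 10.79 in the wild-type mice, 7.02 and 6.42 in animals 14 and 17 and 6.93 in animal 6. Over all probe sets, animal 6 correlated with the wild-type arrays at 0.983 to 0.991 and with animals 14 and 17 at 0.940 to 0.957. Markers of the labelled tissue were read in every array. The mean level of 8 cartilage genes lay between 12.63 and 13.40 and that of 7 bone genes between 12.06 and 12.49. The 14 fast fibre members lay in a similar range, with mean levels of 12.47 to 13.87. The mean level of all 46 members was 10.48 to 12.20, and that of the 6 slow fibre members 7.22 to 8.85. A high marker level alone thus does not set the labelled tissue apart from the fast fibre genes of muscle.

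In a muscle fibre, myosin motors of the thick filament pull on actin in the thin filament, and troponin lets them do so when calcium is released from the sarcoplasmic reticulum. Creatine kinase, glycogen breakdown and oxidative phosphorylation resupply the ATP. Fast and slow fibres use different genes for many of these parts. Cartilage and bone cells build no sarcomeres, while muscles and tendons attach around the knee. In a bulk piece such as this one, fewer muscle cells and less muscle RNA per cell cannot be told apart.

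The mean level of the muscle genes varied more between mice of 1 genotype than between the genotypes. None of the 46 members passed the test between Frzb-/- and wild-type mice, and in all of them the 2 groups overlapped. The median difference was 0.21 on the log2 scale. Almost all members were lowest in animal 6, by a median of 1.25 below the wild-type mean, and all 46 were higher in animal 17 than in animal 14. The median difference between the genotypes was 0.27 for fast and 0.04 for slow fibre genes, and the sign of this gap depended on animal 14.

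The promoters below are shown because they belong to the genes that carry the comparison and differ in their muscle motifs. Acta1 (skeletal actin) and Ckm (muscle creatine kinase) stand for the contractile and the metabolic members. Myh4 and Myh2 are fast myosin genes of 1 cluster. Myl2 is the regulatory light chain gene of slow fibres and Tnnc2 a fast troponin gene. Each is the RefSeq sequence on GRCm38.p6 from 250 bases before to 50 bases after the start of the gene, written 5′ to 3′ along the gene. Capitals mark CAGCTG, which is the E-box form bound by MyoD and myogenin, and matches to the MEF2 and the CArG motif.
Acta1 (chr8:123894726-123895025, minus strand): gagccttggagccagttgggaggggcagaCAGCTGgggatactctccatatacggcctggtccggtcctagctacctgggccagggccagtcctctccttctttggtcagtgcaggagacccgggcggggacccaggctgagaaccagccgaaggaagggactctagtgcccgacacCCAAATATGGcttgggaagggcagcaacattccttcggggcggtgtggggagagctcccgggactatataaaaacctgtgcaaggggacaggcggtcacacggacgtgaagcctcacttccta
Ckm (chr7:19410844-19411143, plus strand): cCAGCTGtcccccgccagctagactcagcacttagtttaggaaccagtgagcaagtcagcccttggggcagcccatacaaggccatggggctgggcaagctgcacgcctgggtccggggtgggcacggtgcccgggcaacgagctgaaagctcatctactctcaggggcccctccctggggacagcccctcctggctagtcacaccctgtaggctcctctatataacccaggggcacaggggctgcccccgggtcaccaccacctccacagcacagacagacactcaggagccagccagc
Myh4 (chr11:67237562-67237861, plus strand): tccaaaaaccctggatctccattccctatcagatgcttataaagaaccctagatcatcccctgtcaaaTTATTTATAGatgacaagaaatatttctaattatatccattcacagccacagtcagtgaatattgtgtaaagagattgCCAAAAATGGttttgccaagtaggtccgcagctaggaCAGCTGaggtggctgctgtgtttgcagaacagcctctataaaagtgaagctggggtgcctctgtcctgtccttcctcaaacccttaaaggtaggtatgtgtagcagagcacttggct
Myh2 (chr11:67170777-67171076, plus strand): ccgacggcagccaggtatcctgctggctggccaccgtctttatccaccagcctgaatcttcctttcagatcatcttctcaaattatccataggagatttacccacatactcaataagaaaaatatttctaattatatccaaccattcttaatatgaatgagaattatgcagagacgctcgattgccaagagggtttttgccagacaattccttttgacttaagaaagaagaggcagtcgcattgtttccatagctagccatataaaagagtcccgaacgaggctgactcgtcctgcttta
Myl2 (chr5:122092474-122092773, plus strand): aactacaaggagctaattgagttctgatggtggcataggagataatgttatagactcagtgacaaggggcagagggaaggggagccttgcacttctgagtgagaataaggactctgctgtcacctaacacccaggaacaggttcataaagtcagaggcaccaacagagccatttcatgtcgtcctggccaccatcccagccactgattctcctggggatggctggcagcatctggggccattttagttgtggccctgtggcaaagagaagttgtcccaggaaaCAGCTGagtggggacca
Tnnc2 (chr2:164779685-164779984, minus strand): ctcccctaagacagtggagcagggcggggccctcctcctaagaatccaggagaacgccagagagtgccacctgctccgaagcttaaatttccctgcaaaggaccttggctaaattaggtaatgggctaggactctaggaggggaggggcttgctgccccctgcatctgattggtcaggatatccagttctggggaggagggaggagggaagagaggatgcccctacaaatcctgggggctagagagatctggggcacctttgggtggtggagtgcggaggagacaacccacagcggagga

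Both strands were searched, and CAGCTG reads the same on each. Acta1 held 1 CAGCTG and 1 CArG match, Ckm and Myl2 held 1 CAGCTG each, and Myh4 held 1 match to each of the 3 motifs. Myh2 and Tnnc2 held no match in this window. RefSeq promoters were matched for 34 of the 47 listed genes. For 6 of them (Myl1, Mylpf, Tnni1, Ldb3, Myom1 and Eno3) the window lay at a transcript start more than 1000 bases inside the gene. CAGCTG was found in 17 of these 34, against 16.1% of all 27025 promoters of this length. The MEF2 motif was found in 4 (Myh1, Myh4, Ttn and Pvalb), against 3.26% of all promoters, and the CArG motif in 5 (Myh4, Myl3, Acta1, Ldb3 and Myom1), against 1.57%. The general E-box CANNTG, of which CAGCTG is 1 form, was found in 28 of the 34 and in 72.1% of all promoters. A match is a run of letters and not a measured binding site.

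The myosin genes shown are neighbours on chromosome 11. Myh2 spans chr11:67171027-67197517, Myh1 spans chr11:67200102-67224577 and Myh4 spans chr11:67237812-67260447. Their transcripts are near-identical over long stretches, and the array maker's suffix of the Myh1 probe set used here (x) marks probes that may bind more than 1 transcript. The separate values of these 3 genes are therefore uncertain.

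The members varied together from mouse to mouse. Their mean level was 12.20, 11.64 and 11.15 in wild-type animals 6-1, 8-1 and 9-1, 11.51 and 12.12 in Frzb-/- animals 14 and 17, and 10.48 in animal 6. The wild-type mean was 11.66 ± 0.52 (SD, n = 3) and the Frzb-/- mean 11.82 ± 0.43 (SD, n = 2). The difference of 0.16 was thus smaller than the spread within either group. Within wild-type, animal 6-1 lay 1.05 above animal 9-1. Animal 6-1 lay 1.72 above animal 6, which is 3.30-fold. For single members, the fold between the highest and the lowest array had a median of 3.66 and ran from 1.66 to 7.54.

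Part of the order of the mice was shared by nearly all members, namely animal 6 as the lowest array and animal 17 above animal 14. Animal 6-1 was the highest of the 6 arrays for 29 members, where it was the highest for 12.5% of all genes. Animal 17 was the highest for 16 members, and animal 8-1 for 1, Csrp3. Animal 17 was above animal 14 in 46 of 46 members, where this held for 40.9% of all genes. The members of 1 array share their RNA and hybridisation, so these counts describe 2 mice each and not 46 separate observations. Over the 6 arrays, the correlation of a member with the mean of the other members had a median of 0.97, and 40 members were above 0.9. The 6 members below that were Csrp3 at 0.62, Myh2 at 0.77, Myl2 at 0.81, Fbxo32 at 0.83, Xirp1 at 0.87 and Myh4 at 0.89.

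**Figure D1:**
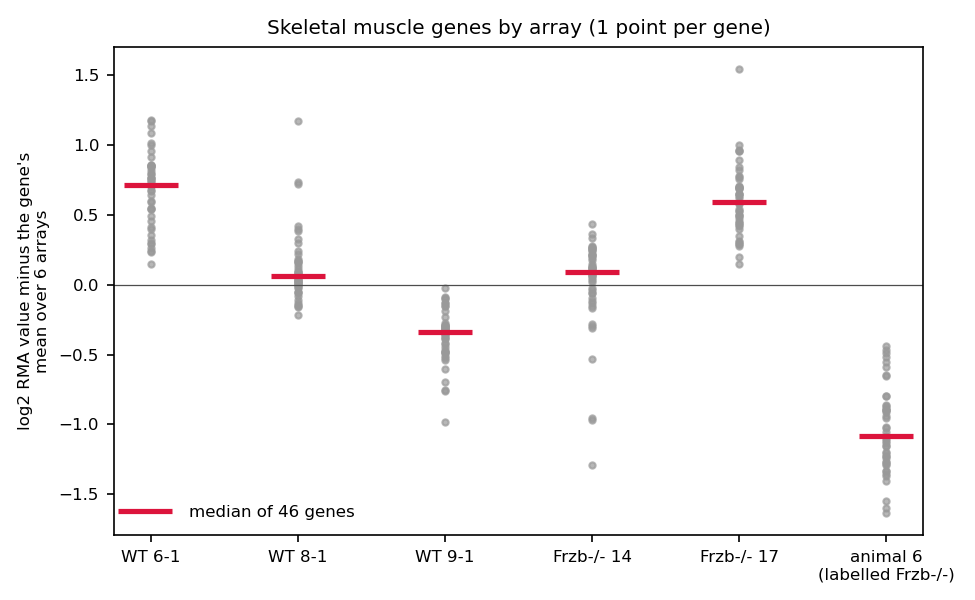
Each point is 1 of the 46 skeletal muscle genes in 1 array, plotted as its log2 RMA value minus its own mean over the 6 arrays, and the bars are medians. The medians are 0.72, 0.06 and -0.34 in wild-type animals 6-1, 8-1 and 9-1, 0.09 and 0.59 in Frzb-/- animals 14 and 17, and -1.09 in animal 6.

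To ask whether loss of Frzb changed muscle transcripts, animals 14 and 17 were compared with the wild-type mice with limma, two-sided, with Benjamini-Hochberg adjustment over all 30618 probe sets. A gene was called at an adjusted p under 0.01 and an absolute log2 difference above 1, which are the thresholds of the study. Of all genes, 3.03% were called higher and 6.02% lower. Of the 46 members, 0 were called, and 0 had an unadjusted p under 0.05 in limma, where 41.6% of all genes did. The smallest adjusted p of a member was 0.195 (Neb). The Frzb-/- and wild-type arrays overlapped in 46 of 46 members, whereas they did not overlap in 59.1% of all genes. The members' differences ran from -1.14 (Csrp3) to 0.58 (Neb), with 38 above 0 and 8 below, and their median was 0.21 beside a median of 0.04 over all genes. The sign of this median rested on single mice. It was -0.24, with 3 members above 0, when animal 6 was counted as Frzb-/-, and -0.03 without animal 17.

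These intervals were wide. The standard error of a member's difference had a median of 0.34 and ran from 0.14 to 0.74. The median width of the 95% interval was 1.61, and 26 of the 46 intervals lay within -1 and 1. For the others, a change of that size in 1 direction or the other was within the interval. In the thick filament genes the median difference was 0.29, in the thin filament genes 0.18, in the Z-disc, titin and M-band genes 0.14, in the excitation and calcium genes 0.24, in the energy genes 0.30 and in the pair of ubiquitin ligases 0.41.

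**Figure D2:**
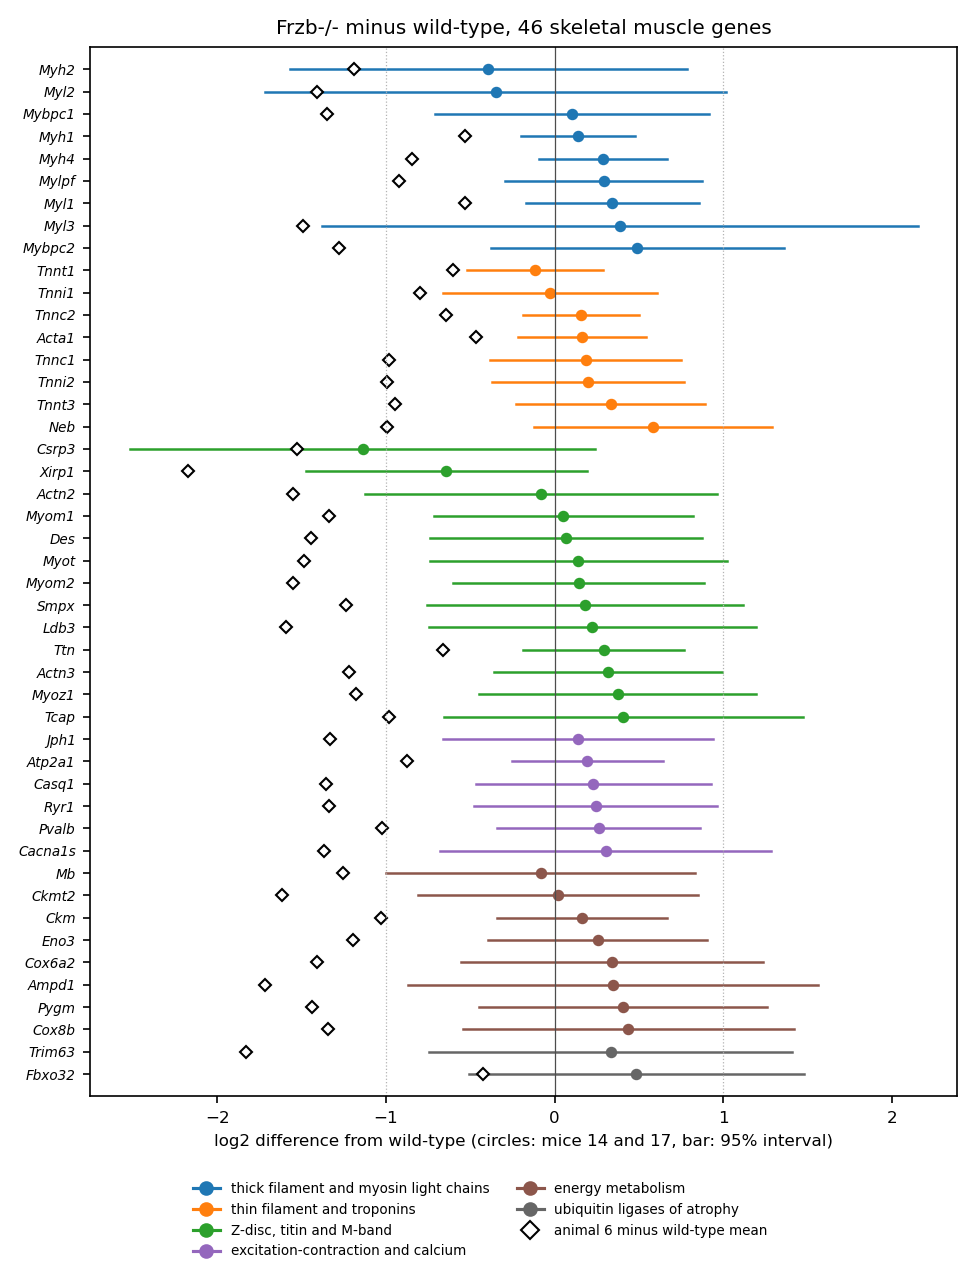
Circles give the log2 difference of the 46 members between Frzb-/- animals 14 and 17 and the 3 wild-type mice, with 95% intervals from limma, coloured by role, and open diamonds give animal 6 minus the wild-type mean. All 46 intervals include 0, and all diamonds lie below 0, from -2.17 (Xirp1) to -0.43 (Fbxo32).

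Single genes are given with wild-type animals in the order 6-1, 8-1 and 9-1 and Frzb-/- animals in the order 14 and 17, beginning with the fast genes of the thick filament. Myh1 read 13.91, 13.88 and 13.63 in the wild-type mice, 13.84 and 14.05 in the Frzb-/- mice and 13.28 in animal 6, at a probe set that may also bind related myosins. Myh4 stood at 14.07, 13.62 and 13.74 in wild-type mice, at 14.03 and 14.17 in Frzb-/- mice and at 12.97 in animal 6. In both, animal 6 was the lowest and the other arrays lay close together. Myh2 read 13.14, 12.86 and 12.37 in the wild-type mice, 11.49 and 13.30 in the Frzb-/- mice and 11.60 in animal 6. This gene of the fast oxidative fibres was lowest in animal 14 rather than in animal 6, and its difference was -0.39 with a standard error of 0.50 (limma adjusted p = 0.597). Myl1 stood at 14.44, 14.00 and 13.73 in wild-type mice, at 14.27 and 14.52 in Frzb-/- mice and at 13.52 in animal 6. It encodes the fast essential light chain. Mylpf read 14.48, 13.88 and 13.62 in the wild-type mice, 14.21 and 14.36 in the Frzb-/- mice and 13.07 in animal 6. This fast regulatory light chain gene had its lowest value in animal 6 as well. Mybpc2 stood at 13.14, 12.07 and 11.81 in wild-type mice, at 12.72 and 12.94 in Frzb-/- mice and at 11.06 in animal 6. Mybpc2 is the fast myosin-binding protein C, and its difference of 0.49 (SE 0.37) was within the spread of the wild-type mice (limma adjusted p = 0.366).

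The slow genes of the thick filament were read by dimmer probe sets, apart from Mybpc1. Myl2 read 8.44, 8.47 and 7.34 in the wild-type mice, 6.78 and 8.69 in the Frzb-/- mice and 6.68 in animal 6. Myl3 stood at 9.48, 8.47 and 7.32 in wild-type mice, at 7.77 and 9.85 in Frzb-/- mice and at 6.94 in animal 6. These regulatory and essential light chains of slow fibres were both low in animals 14, 9-1 and 6 and high in animals 17 and 6-1. Mybpc1 read 12.75, 12.23 and 11.71 in the wild-type mice, 11.92 and 12.74 in the Frzb-/- mice and 10.88 in animal 6. Mybpc1, the slow myosin-binding protein C, was lowest in animal 6 too. The differences were -0.35 for Myl2 (SE 0.58), 0.39 for Myl3 (SE 0.74) and 0.10 for Mybpc1 (SE 0.34). The limma adjusted p-values were 0.69, 0.734 and 0.848 in that order.

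In the thin filament, Acta1 stood at 14.53, 14.27 and 14.14 in wild-type mice, at 14.35 and 14.61 in Frzb-/- mice and at 13.85 in animal 6. Acta1, the actin of adult skeletal muscle, spanned 0.76 over the arrays, with a difference of 0.16 (SE 0.16, limma adjusted p = 0.487). Neb read 11.78, 11.08 and 10.77 in the wild-type mice, 11.58 and 12.02 in the Frzb-/- mice and 10.22 in animal 6. Neb encodes nebulin, which runs along the actin filament, and its difference of 0.58 (SE 0.30) was the highest of the members, yet its values in animals 6-1 and 14 overlapped (limma adjusted p = 0.195). Tnnt3 stood at 14.16, 13.71 and 13.38 in wild-type mice, at 13.92 and 14.25 in Frzb-/- mice and at 12.80 in animal 6. Tnnc2 read 14.35, 14.15 and 14.02 in the wild-type mice, 14.24 and 14.42 in the Frzb-/- mice and 13.53 in animal 6. Tnni2 stood at 14.15, 13.59 and 13.37 in wild-type mice, at 13.74 and 14.06 in Frzb-/- mice and at 12.70 in animal 6. These 3 genes encode the fast troponins T, C and I, and each was highest in animal 6-1 or 17 and lowest in animal 6. Tnnt1 read 8.07, 8.05 and 7.71 in the wild-type mice, 7.66 and 8.00 in the Frzb-/- mice and 7.34 in animal 6. Tnni1 stood at 6.64, 6.19 and 5.71 in wild-type mice, at 5.98 and 6.33 in Frzb-/- mice and at 5.38 in animal 6. Tnnc1 read 7.30, 7.28 and 6.67 in the wild-type mice, 7.03 and 7.51 in the Frzb-/- mice and 6.10 in animal 6. The slow troponins T, I and C were also lowest in animal 6. Over the 8 thin filament genes, the differences between Frzb-/- and wild-type ran from -0.11 (Tnnt1) to 0.58.

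In the Z-disc, titin and M-band group, Ttn stood at 13.49, 13.24 and 12.90 in wild-type mice, at 13.33 and 13.68 in Frzb-/- mice and at 12.55 in animal 6. Ttn encodes titin, the spring of the sarcomere, and its difference was 0.29 (SE 0.20). Actn3 read 13.86, 13.07 and 12.91 in the wild-type mice, 13.43 and 13.77 in the Frzb-/- mice and 12.07 in animal 6. Actn3 is the alpha-actinin of fast fibres. Myoz1 stood at 12.85, 11.92 and 11.64 in wild-type mice, at 12.30 and 12.72 in Frzb-/- mice and at 10.96 in animal 6. Myoz1 is a calcineurin-binding Z-disc protein of fast fibres, and like Actn3 it was lowest in animal 6. Csrp3 read 10.87, 10.95 and 9.42 in the wild-type mice, 8.49 and 10.05 in the Frzb-/- mice and 8.88 in animal 6. Csrp3, the muscle LIM protein, had the lowest difference of the members at -1.14 (SE 0.58, limma adjusted p = 0.197), and the group values overlapped because animal 9-1 lay below animal 17. Xirp1 stood at 9.15, 8.74 and 7.89 in wild-type mice, at 7.74 and 8.16 in Frzb-/- mice and at 6.42 in animal 6. Xirp1 encodes an actin-binding repeat protein, and its difference was -0.64 (SE 0.35, limma adjusted p = 0.225). The other 8 genes of the group were Actn2, Tcap, Ldb3, Myot, Myom1, Myom2, Des and Smpx. Their differences ran from -0.08 (Actn2, an alpha-actinin) to 0.41 (Tcap, the titin cap), and all 8 were lowest in animal 6.

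In excitation and calcium handling, Atp2a1 read 14.26, 13.87 and 13.66 in the wild-type mice, 14.05 and 14.20 in the Frzb-/- mice and 13.05 in animal 6. Atp2a1 encodes the calcium pump of fast fibres. Casq1 stood at 13.39, 12.66 and 12.33 in wild-type mice, at 12.91 and 13.15 in Frzb-/- mice and at 11.44 in animal 6. Casq1 holds calcium inside the reticulum. Pvalb read 14.01, 13.37 and 13.13 in the wild-type mice, 13.68 and 13.85 in the Frzb-/- mice and 12.48 in animal 6. Pvalb encodes parvalbumin, a calcium buffer of fast fibres. Cacna1s stood at 10.31, 9.38 and 8.75 in wild-type mice, at 9.57 and 9.99 in Frzb-/- mice and at 8.11 in animal 6. Cacna1s, the voltage sensor of the muscle membrane, had the largest difference of the group at 0.30 (SE 0.41, limma adjusted p = 0.627). Ryr1, the calcium release channel, and Jph1, which holds the membranes together, differed by 0.24 and 0.14. All 6 genes were highest in animal 6-1 and lowest in animal 6.

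In energy metabolism, Ckm read 14.39, 13.91 and 13.74 in the wild-type mice, 14.01 and 14.34 in the Frzb-/- mice and 12.98 in animal 6. Eno3 stood at 14.02, 13.37 and 13.07 in wild-type mice, at 13.58 and 13.90 in Frzb-/- mice and at 12.29 in animal 6. Ckm is the cytosolic creatine kinase and Eno3 the muscle enolase, and both were high in animals 6-1 and 17. Cox8b read 12.26, 11.49 and 10.71 in the wild-type mice, 11.68 and 12.16 in the Frzb-/- mice and 10.14 in animal 6. Pygm stood at 12.58, 11.67 and 11.24 in wild-type mice, at 12.09 and 12.38 in Frzb-/- mice and at 10.39 in animal 6. Cox8b is a muscle subunit of cytochrome c oxidase and Pygm the muscle glycogen phosphorylase, and their differences were 0.44 (SE 0.41) and 0.40 (SE 0.36), with limma adjusted p-values of 0.476 and 0.449. Ckmt2, the mitochondrial creatine kinase, Mb, which encodes myoglobin, Ampd1, the muscle AMP deaminase, and Cox6a2, another oxidase subunit, differed by 0.02, -0.08, 0.35 and 0.34. Animal 6 was the lowest array for all 8 energy genes, and animal 6-1 the highest for 7 of them.

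Trim63 and Fbxo32 encode the ubiquitin ligases MuRF1 and atrogin-1, which rise in wasting muscle. Trim63 read 9.88, 8.95 and 8.34 in the wild-type mice, 8.95 and 9.83 in the Frzb-/- mice and 7.23 in animal 6. Fbxo32 stood at 8.73, 8.42 and 7.57 in wild-type mice, at 8.16 and 9.29 in Frzb-/- mice and at 7.81 in animal 6. Neither passed the test, with differences of 0.33 (SE 0.45) and 0.49 (SE 0.42). At its brightest probe set, Fbxo32 was 1 of the 3 members for which animal 6 was not the lowest array. Its lowest value there was that of animal 9-1. At its dimmer probe sets animal 6 was the lowest, at 7.21 and 6.18 against 7.49 and 6.58 in animal 9-1.

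Animal 6 was then compared with the wild-type mice as a group of its own. Since it was 1 array, it took its spread from the other groups in limma, and this comparison shares the wild-type arrays with the one above. Animal 6 was below all 5 other arrays in 43 of 46 members, where this held for 19.9% of all genes. The exceptions were Myh2 and Csrp3, lowest in animal 14, and Fbxo32. The members' differences from wild-type had a median of -1.25 and ran from -2.17 (Xirp1) to -0.43 (Fbxo32), beside a median of 0.00 over all genes. Of the 46 members, 37 were lower at an unadjusted p under 0.05, where 3.65% of all genes were. None passed the adjusted threshold, and their adjusted p-values from limma ran from 0.616 to 0.921. In the whole fit 0 probe sets were called, with a smallest adjusted p of 0.0155.

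By their medians, lists of other cell types differed less between animal 6 and wild-type. Animal 6 was the highest array for 4 of 8 cartilage genes, whose median difference from wild-type was 0.25. It was the highest for 2 of 7 bone genes, with a median of 0.14, and for 2004 of all 13817 genes. The mean level of the cartilage list was 12.75 to 13.23 in wild-type, 12.63 and 13.10 in Frzb-/- and 13.40 in animal 6. The cartilage mean was highest in animal 6, where Col10a1 read 13.05 against 11.50, 11.74 and 10.93 in wild-type, a difference of 1.66. The cartilage and muscle means did not run in opposite order over all arrays. The lowest cartilage mean was that of animal 14, whose muscle mean of 11.51 was below those of animals 6-1, 8-1 and 17. The medians of the other lists differed from wild-type by -0.40 for the 2 measured cardiac genes, -0.37 for the 3 measured adipocyte genes, -0.18 for smooth muscle and -0.16 for tendon in animal 6. Animal 6 was the lowest array for 2 of the 3 adipocyte genes, among them Cidea at 5.96 against 6.43 to 7.36 in wild-type. It was also the lowest for 6 of 10 smooth muscle genes and 2 of 6 tendon genes, where this held for 19.9% of all genes. The part of the dissection, or of the share of cartilage in the piece, in the low muscle values was not tested.

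Fast and slow fibre genes were compared to see whether 1 fibre type carried the spread between mice. All 14 fast fibre genes and 6 of 7 slow fibre genes had a probe set. The median difference between Frzb-/- and wild-type was 0.27 for the fast and 0.04 for the slow genes, and no gene of either list was called (0 at an unadjusted p under 0.05 in limma). Of the fast genes 13 of 14 lay above 0, Myh2 being the exception, and of the slow genes 3 of 6. The gap between the medians was 0.24. Its sign rested on 1 mouse, for it was -0.11 without animal 14 and 0.46 without animal 17.

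The gap was also read in each array, as the median deviation of the fast genes from their own 6-array means minus that of the slow genes. It was -0.11, -0.25 and 0.05 in wild-type animals 6-1, 8-1 and 9-1. It was 0.36 in animal 14, -0.17 in animal 17 and 0.09 in animal 6. Animal 14 thus lay above the wild-type range, animal 17 within it and animal 6 just above it. Animals 14 and 17, which share a genotype, were further apart than any pair of wild-type mice.

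**Figure D3:**
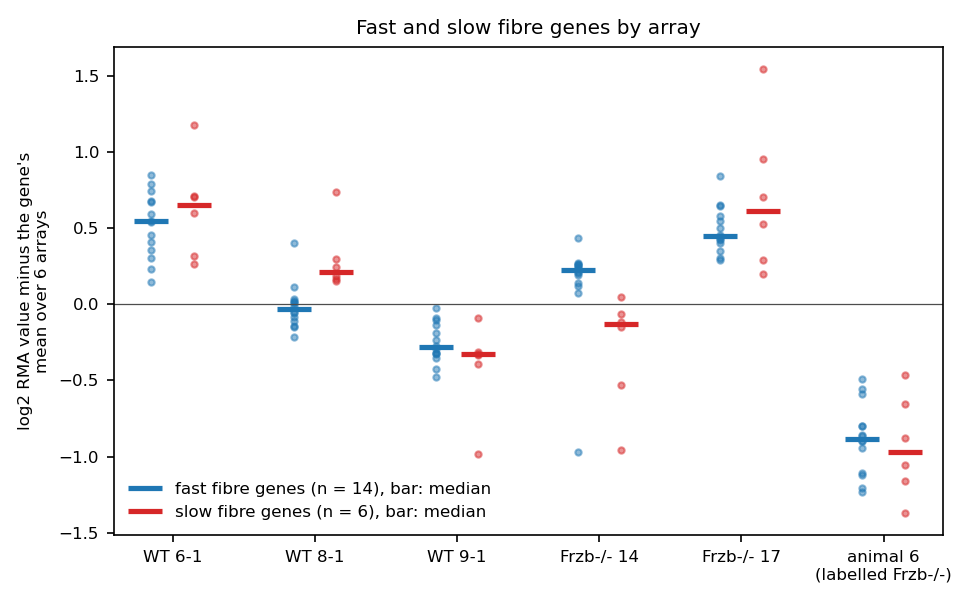
Each point is a fast (blue, 14 genes) or slow (red, 6 genes) fibre gene, plotted as its log2 RMA value minus its mean over the 6 arrays, and bars are medians. In animal 14 the fast median is 0.23 and the slow median -0.13, while both are above 0 in animals 6-1 and 17 and both are lowest in animal 6.

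Animal 17 minus animal 14 had a median of 0.23 in the fast genes, from 0.14 to 1.81, and of 0.65 in the slow genes, from 0.35 to 2.08. At the brightest probe sets, the largest values among the members were 2.08 for Myl3, 1.91 for Myl2, 1.81 for Myh2, 1.57 for Csrp3 and 1.13 for Fbxo32. Large values were not confined to these genes. Dimmer probe sets gave up to 2.09 for Ttn, 1.49 for Mybpc1 and 1.14 for Myh4, against 0.36, 0.82 and 0.14 at their brightest. Mylk2, a muscle gene outside the members, gave 2.06. Myh2 belongs to the fast oxidative fibres and Csrp3 is known for its higher level in slow muscle. The slow troponins Tnnt1, Tnni1 and Tnnc1 differed by only 0.35 to 0.48. These are differences between 2 single mice, with no replicate.

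Slow fibre genes that were not members were read as well. Ankrd2 read 9.86, 9.77 and 8.25 in the wild-type mice, 7.56 and 9.15 in the Frzb-/- mice and 7.60 in animal 6. Myoz2 stood at 10.37, 9.91 and 8.76 in wild-type mice, at 8.47 and 10.12 in Frzb-/- mice and at 8.07 in animal 6. Casq2 read 9.11, 8.30 and 7.37 in the wild-type mice, 7.72 and 8.67 in the Frzb-/- mice and 7.05 in animal 6. These 3 genes encode a stretch-responsive ankyrin protein, a Z-disc protein and a calcium store protein of slow and cardiac muscle, and all were lower in animal 14 than in animal 17, by 1.59, 1.65 and 0.95. Atp2a2 and Tpm3, which many other cells also express, differed between these mice by -0.04 and -0.11. Between Frzb-/- and wild-type mice all 5 genes lay below 0, with a median of -0.36 and -0.94 for Ankrd2, beside a median of 0.04 for the slow members. Of the 5 genes 0 were called, and 1, Tpm3, had an unadjusted p under 0.05 in limma, where 41.6% of all genes did.

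The fibre types also differed in where their probe sets lay on the signal scale. The fast genes had 6-array means of 12.06 to 14.12, while the slow genes had means of 6.04 to 8.31, apart from Mybpc1 at 12.04. Among the 46 members, the 23 with the higher means had a median range over the arrays of 1.53 and the 23 with the lower means one of 2.09. Fibre type and place on the signal scale cannot be told apart here.

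Several members were read by more than 1 probe set, and these gave a check on the choice of the brightest. There were 14 such genes, with 23 dimmer probe sets. Of the 23, 18 showed a higher Frzb-/- minus wild-type difference than the brightest probe set of the same gene, and the medians were 0.44 for the dimmer and 0.23 for the brightest. None of the 23 was called, and 4 had an unadjusted p under 0.05 in limma, where 41.6% of all genes did at their brightest probe sets. The 4 were probe sets of Myh1 (its dimmest, 0.82), Myh4 (1.85), Myoz1 (0.93) and Fbxo32 (0.65). The Myh1 probe set had a limma adjusted p of 0.0234, with values of 5.82, 5.42 and 5.42 in wild-type, 6.14 and 6.61 in Frzb-/- and 5.50 in animal 6. The 2 other Myh1 probe sets read between 13.26 and 14.05 over all arrays and differed by 0.14 each. Probe sets of 1 gene can bind different transcripts, and which of them reads the muscle transcript was not tested.

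**Figure D4:**
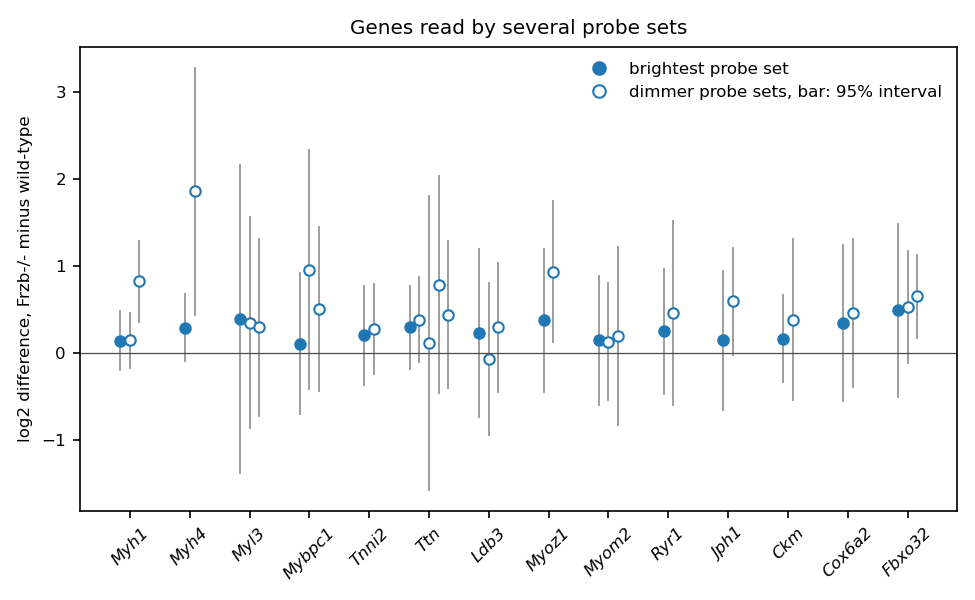
The log2 difference between Frzb-/- and wild-type mice is shown for the 14 members with more than 1 probe set, filled for the brightest probe set and open for dimmer ones, with 95% intervals from limma. The brightest probe sets have a median of 0.23 and the dimmer ones of 0.44, and the Myh4 point at 1.85 stands apart.

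Genes of skeletal muscle outside the members gave the same order of mice by median deviation. By mean level, animals 14 and 8-1 changed places, at 9.32 and 9.19 against 11.51 and 11.64 in the members. Of 62 listed, 52 had a probe set. Their median deviations were 0.73, -0.01 and -0.41 in wild-type animals 6-1, 8-1 and 9-1, 0.16 and 0.66 in animals 14 and 17 and -1.12 in animal 6, which was the lowest for 47 of the 52. None was called, and the median difference was 0.26. An unadjusted p under 0.05 in limma was found for 5 of the 52, where 41.6% of all genes had one. Mylk2 stood at 6.61, 6.20 and 5.97 in wild-type mice, at 6.80 and 8.86 in Frzb-/- mice and at 5.87 in animal 6. Stac3 read 8.78, 7.87 and 6.94 in the wild-type mice, 8.58 and 9.25 in the Frzb-/- mice and 7.01 in animal 6. The difference was 1.57 for Mylk2, the skeletal myosin light chain kinase (SE 0.54), and 1.05 for Stac3, a partner of the calcium channel (SE 0.49). Actc1 stood at 12.82, 10.89 and 11.34 in wild-type mice, at 13.19 and 12.23 in Frzb-/- mice and at 10.05 in animal 6. Dmd read 8.30, 7.92 and 7.53 in the wild-type mice, 8.67 and 9.22 in the Frzb-/- mice and 7.31 in animal 6. Actc1, the cardiac actin, differed by 1.03 (SE 0.56) and Dmd, which encodes dystrophin, by 1.03 (SE 0.26). The limma adjusted p-values of Mylk2, Stac3, Actc1 and Dmd were 0.0750, 0.163, 0.222 and 0.0278.

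The myogenic regulators, transcription factors that set muscle identity, were in the same list. Myod1 stood at 7.94, 7.12 and 6.29 in wild-type mice, at 6.29 and 7.00 in Frzb-/- mice and at 5.60 in animal 6. Myf6 read 9.33, 8.32 and 7.76 in the wild-type mice, 8.36 and 9.42 in the Frzb-/- mice and 7.07 in animal 6. Myog stood at 6.23, 5.61 and 5.28 in wild-type mice, at 5.84 and 5.99 in Frzb-/- mice and at 4.74 in animal 6. All 3 were lowest in animal 6, and none was called. Myf5 read only 3.05 to 3.53 over the arrays and was lowest in animal 6 too. Mef2c, another transcription factor of the list, went the other way, at 11.68 in animal 6, which was 0.31 above the wild-type mean. Neither of these was called between the genotypes. Of the cardiac markers only 2 of 7 had a probe set, with mean levels of 4.88 to 6.01 per array.

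Several lists of other cell types separated the genotypes, unlike the muscle genes. Over all genes, the groups did not overlap in 59.1%, while 3.03% were called higher and 6.02% lower. An unadjusted p under 0.05 in limma was found for 41.6% of all genes. All 10 smooth muscle and pericyte genes were higher in both Frzb-/- mice than in every wild-type mouse, with a median difference of 1.12 and 3 calls. The mean level of the list was 8.95 to 9.15 in wild-type, 10.05 and 10.26 in Frzb-/- and 8.94 in animal 6. Myh11, the smooth muscle myosin, differed by 1.79 (SE 0.18) and Acta2, its actin, by 1.24 (SE 0.13), with limma adjusted p-values of 0.00131 and 0.00132. The 6 tendon genes had a median difference of 0.88 and 1 call, Thbs4 at 1.25, with mean levels of 8.97 to 9.56 in wild-type, 10.14 and 10.30 in Frzb-/- and 9.14 in animal 6. Of the adipocyte genes 3 of 6 had a probe set and 2, Adipoq and Cidea, were called higher. All 8 neutrophil and all 6 measured erythroid genes were called lower, with medians of -2.14 and -2.83. In the cartilage and bone lists 0 genes were called, with 1 gene in each at an unadjusted p under 0.05 in limma. Of 6 nerve genes 2 had a probe set, and they went opposite ways. Mbp was called lower at -1.35, while Pmp22 was higher by 0.90 (SE 0.13) and not called. The part of these cell types in the muscle values was not tested.

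**Figure D5:**
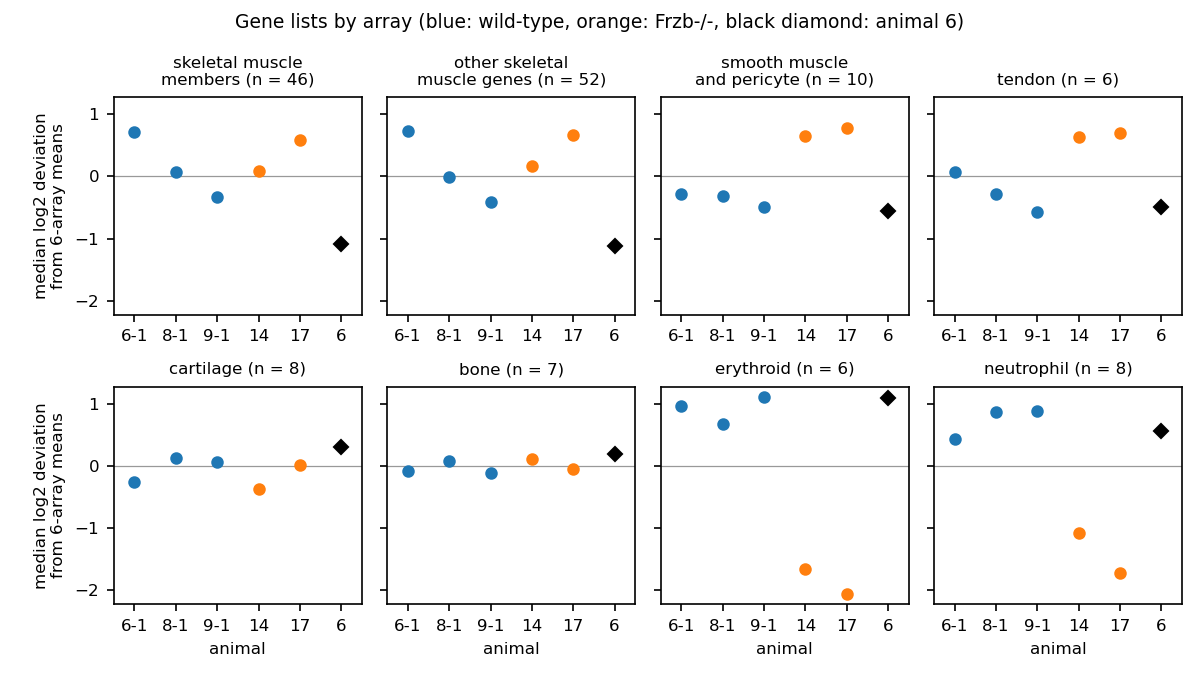
Each panel gives, for 1 gene list, the median over its genes of the log2 deviation from the gene's 6-array mean in each array, with wild-type in blue, Frzb-/- in orange and animal 6 as a black diamond. The members and the other skeletal muscle genes have the same order of mice, with animal 6 lowest at -1.09 and -1.12, while the smooth muscle, tendon, erythroid and neutrophil lists separate animals 14 and 17 from the wild-type mice.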

How the data were processed

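The authors extracted RNA from 1 joint per mouse, kept non-degraded samples and hybridised them to Affymetrix mouse genome arrays. The deposited values are log2 expression values made by RMA in affy 1.20.0, which corrects background, normalizes arrays by quantiles and sums probes into probe sets. The methods state that control and absent probe sets were removed. The deposited table holds 30618 probe sets, slightly more than the study counted as present, with no detection calls, and all were tested. They had array medians of 7.32 to 7.45. Of these, 25090 belonged to 1 gene in the platform annotation, 677 to several and 4851 to none, and only the first were named.

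Groups came from the sample labels. The model was limma's (version 3.58.1, with R 4.3.3), moderated by eBayes and tested on both sides, with Benjamini-Hochberg adjustment over all probe sets. On simulated data of 30618 probe sets, the comparison of 3 with 2 arrays called 13 of 100 probe sets shifted by 1, 76 shifted by 1.5 and 97 shifted by 2.5, with 2 false calls. The simulated probe sets varied independently, with a spread fitted to all probe sets, and few of them were shifted. The muscle members varied together, so these rates do not say how often a change in them would be called. Tables and figures were made in Python 3.11.15 with numpy 2.4.6, pandas 2.3.3 and matplotlib 3.10.9. Values in every array were given for fast and slow fibre genes and, in each role, for the 2 brightest genes and the 2 with the largest difference. Other muscle genes were named for the 4 largest differences, for the slow fibre genes and for the myogenic regulators and Mef2c. The regulators and Mef2c were chosen after their values were seen. As alternatives, animal 6 was added, single mice were dropped, arrays were aligned by cyclic loess, dim probe sets were filtered out, the moderation was trended, arrays were weighted, and probe sets of a gene were averaged. The members and lists were chosen with earlier results of these data known.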

Additional observations from a re-analysis of the deposited data

Results flagged for a closer look

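Myh4 at its second probe set, which its main value does not use, differed by 1.85 on the log2 scale between Frzb-/- and wild-type mice (limma, SE 0.60, 95% interval 0.44 to 3.27, adjusted p = 0.0610). It was singled out because the difference was above 1 and both Frzb-/- arrays were above every wild-type array, at 10.06 and 11.20 against 9.96, 8.42 and 7.95, with 8.33 in animal 6. Of the 23 dimmer probe sets of members, 4 had both Frzb-/- arrays above every wild-type array, and those of Myoz1, Myh1 and Fbxo32 differed by less than 1. Over all genes, read at their brightest probe sets, 59.1% had groups that did not overlap. The gap between animal 14 and wild-type animal 6-1 was small beside the spread within each group. The brightest Myh4 probe set differed by 0.29, with overlapping groups. What the second probe set binds was not tested.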

How the results depend on the processing

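The count of members called between Frzb-/- and wild-type mice was 0 in all 11 other fits and at an adjusted p under 0.05 with no fold limit, and the count for animal 6 was 0 in both of its alternatives. The sign of the median difference (0.21) was not stable. It was -0.24 with all 3 labelled mice, and leaving out 1 mouse gave -0.03 to 0.46, with -0.03 without animal 17, -0.00 without animal 9-1, 0.43 without animal 6-1 and 0.46 without animal 14. Cyclic loess gave 0.21, the filter on dim probe sets 0.23 with 44 members left, and the mean over probe sets 0.27. The gap between fast and slow fibre genes (0.24) ran from -0.11 (without animal 14) to 0.46 (without animal 17) when 1 mouse was left out, and was 0.15 to 0.30 otherwise. At an adjusted p under 0.05 in limma, Mybpc2 (0.89), Neb (0.87), Pygm (0.78) and Myoz1 (0.73) were higher without animal 6-1, Xirp1 (-0.99) and Csrp3 (-1.64) lower without animal 9-1, and Myh2 (-1.30) lower without animal 17. Over 504 member values in the 11 fits, 77 changed sign, none of them called. No paired analysis was possible because the groups share no replicate numbers. Arrays have no read depth, and the 5 mice of the comparison limit the precision. Nothing here says that muscle transcripts are equal in the genotypes.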
